A study of Mus musculus with 18 samples.

Results

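Fibromodulin (Fmod) and 6 further small leucine-rich proteoglycans, lumican (Lum), decorin (Dcn), biglycan (Bgn), osteoglycin (Ogn), asporin (Aspn) and Prelp, were followed across 3 RNA-seq experiments on mouse embryonic lung. These 7 genes were taken by symbol from the 23420 genes of each experiment's table, and all 7 were present in every table. They were chosen by the measured counts of the Wnt5a-Dermo1-Cre experiment, in which Fmod was lower in each mutant library, so the Wnt5a-Dermo1-Cre values below are a description and were not tested. Each experiment had 3 control and 3 mutant libraries. In the Wnt5a-Dermo1-Cre experiment, lungs at E12.5 (embryonic day) were Wnt5af/+; Dermo1Cre (control) or Wnt5af/f; Dermo1Cre (mutant). Dermo1-Cre is expressed from the Twist2 locus and removes floxed Wnt5a in mesenchyme, and the controls also carried the Cre and 1 floxed Wnt5a allele. In the Wnt5a-Sox9-Cre experiment, lungs at E13.5 were Wnt5af/+; Sox9Cre or Wnt5af/f; Sox9Cre, and the Cre acts in lung epithelium, where the study describes a late onset, once early branching is under way. In the Vangl1-2 experiment, lungs at E12.5 were Vangl1-/- (control) or Vangl1-/-; Vangl2-/- (mutant), so that all 6 libraries were Vangl1-/- by label. The Vangl1 allele was a gene trap, from which 113 to 274 normalized counts were still read per library, and Vangl2 was deleted early in the whole embryo. How many embryos went into a library is not given in the sources used here, so p-values measure the spread between libraries, which may be technical in part. Some libraries held RNA of both sexes and may be pools of embryos, which was not tested. Xist, the RNA of the inactive X chromosome, was 6440 in Wnt5a-Dermo1-Cre control replicate 2, where Y-linked genes summed to 2402 normalized counts. In Wnt5a-Sox9-Cre control replicate 3 these were 4861 and 2704. In Vangl1-2 control replicate 1 they were 1832 and 2549. Xist was higher, with Y-linked RNA also present, in 3 more libraries. These were Wnt5a-Sox9-Cre control replicates 1 (12536 and 871) and 2 (12683 and 1043) and Wnt5a-Dermo1-Cre mutant replicate 2 (15523 and 796). The remaining libraries held mainly 1 of these RNAs.

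Small leucine-rich proteoglycans are secreted proteins whose curved leucine-rich repeats bind collagen fibrils and set their diameter and spacing. Decorin and biglycan carry chondroitin or dermatan sulfate chains, whereas fibromodulin and lumican carry keratan sulfate. Several of them also bind TGF-beta and BMP ligands and keep these growth factors in the matrix. Wnt5a is a ligand of noncanonical Wnt signaling, and Vangl1 and Vangl2 are core membrane proteins of planar cell polarity.

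The family lies in small gene clusters, which are described here because neighbours are compared further on. In the GRCm38 build (GENCODE annotation), Prelp (chr1:133910304-133921414, minus strand) and Fmod (chr1:134037254-134048277, plus strand) are 115.8 kb apart with 0 protein-coding genes between them, and Optc lies on the other side of Prelp. Dcn (chr10:97479609-97518143, plus strand) and Lum (chr10:97565128-97572703, plus strand) are 47.0 kb apart with 0 protein-coding genes between them, followed by Kera and Epyc. Aspn (chr13:49544443-49567565, plus strand) and Ogn (chr13:49608046-49624501, plus strand) flank Omd. Bgn (chrX:73483602-73495933, plus strand) has no close relative beside it. The 250 bases before the RefSeq start site are printed for Fmod and Bgn, whose Wnt5a-Dermo1-Cre groups did not overlap, and for Prelp, the neighbour that varied most closely with Fmod. RefSeq promoters were matched for 5 of the 7 members. Capitals mark E boxes (CANNTG) and Smad motifs (CAGAC), searched on both strands, so that a reverse-strand Smad match reads GTCTG.
Fmod (chr1:134037004-134037253, plus strand): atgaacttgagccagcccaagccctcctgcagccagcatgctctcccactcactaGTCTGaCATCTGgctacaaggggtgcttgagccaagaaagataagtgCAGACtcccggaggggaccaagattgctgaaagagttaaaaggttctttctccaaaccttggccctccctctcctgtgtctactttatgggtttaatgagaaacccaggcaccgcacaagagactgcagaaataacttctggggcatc
Bgn (chrX:73483351-73483600, plus strand): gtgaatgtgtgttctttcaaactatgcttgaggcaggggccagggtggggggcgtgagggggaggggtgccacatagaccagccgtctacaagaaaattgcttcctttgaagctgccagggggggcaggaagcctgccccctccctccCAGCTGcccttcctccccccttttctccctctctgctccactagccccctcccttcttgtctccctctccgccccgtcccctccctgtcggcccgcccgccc
Prelp (chr1:133921402-133921651, minus strand): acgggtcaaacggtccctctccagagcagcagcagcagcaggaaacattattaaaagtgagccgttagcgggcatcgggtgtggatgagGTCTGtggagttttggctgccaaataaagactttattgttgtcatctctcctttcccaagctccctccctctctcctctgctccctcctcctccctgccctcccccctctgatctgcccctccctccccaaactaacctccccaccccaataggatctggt

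The Fmod window held 1 E box, starting 189 bases before the start site, and 2 Smad motifs, starting 195 and 148 bases before it. The Bgn window held 1 E box and 0 Smad motifs, and the Prelp window held 0 E boxes and 1 Smad motif. Of the same 250 bases in 32851 RefSeq promoters, 66.2% held an E box and 42.2% a Smad motif, so either match is common. None of the 5 windows matched the AP-1 letters TGANTCA or the TCF/LEF letters ATCAAAG, which were found in 6.75% and 3.21% of promoters. The TATA box letters TATAAA matched in the Ogn and Aspn windows, against 12.4% of promoters, and not in those of Fmod, Bgn and Prelp. These are matches of letters, not binding sites.

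**Figure D1:**
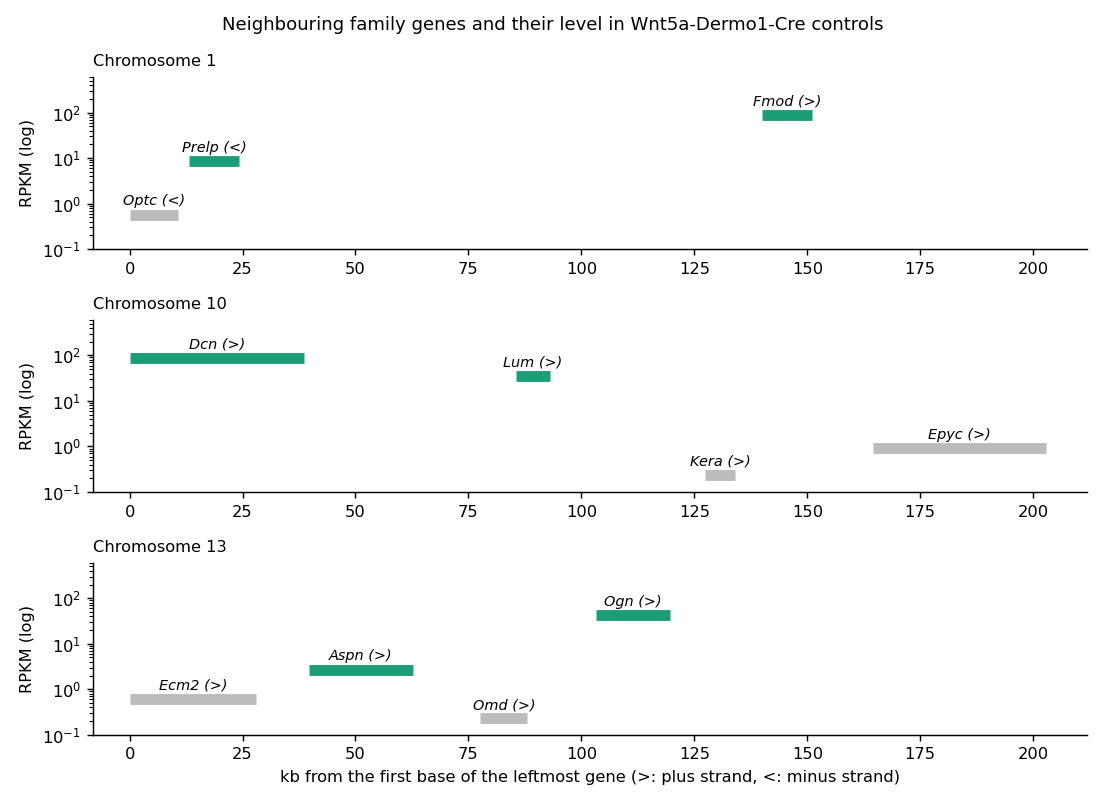
The panels show the chromosome 1, 10 and 13 clusters, with kb from the leftmost gene on the x axis and the mean level in 3 Wnt5a-Dermo1-Cre control lungs (RPKM, reads scaled to transcript length and to the library's total, log axis) on the y axis. Green bars are members and grey bars other family genes, drawn over their length. Dcn (87.0) and Lum (35.0) stand far above their neighbours Kera (0.236) and Epyc (0.905).

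The libraries held 15945393 to 19814346 reads assigned to genes, with size factors from 0.952 to 1.07. The targeted gene was checked first. Wnt5a in the Wnt5a-Dermo1-Cre experiment had 472, 429.6 and 489 normalized counts (gene reads divided by the library's size factor) in controls and 317, 436 and 229.7 in mutants. Mutant replicate 2 lay within the control range, and the difference did not pass the test (log2 fold change -0.55 ± 0.19 (SE), limma adjusted p = 0.406). Wnt5a in the Wnt5a-Sox9-Cre experiment averaged 451 in controls and 417 in mutants (adjusted p = 0.9999). Vangl2 in the Vangl1-2 experiment fell from 339 ± 64.9 (SD, n = 3) to 85.3 ± 5.01 (limma adjusted p = 0.0318, lower in 3 of 3 mutants, and 0.0526 to 0.344 when a library other than control replicate 2 was left out). The lung markers Nkx2-1 (2100 to 2884) and Tbx4 (2967 to 4293) were high in each library. In these bulk samples, fewer cells of a type and less RNA per cell cannot be told apart.

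Per length of transcript, Bgn was the most abundant member in control lungs and Aspn the least. In Wnt5a-Dermo1-Cre controls, the mean levels in RPKM (reads scaled to transcript length and to the library's total) were 127 for Bgn, 88.0 for Fmod, 87.0 for Dcn, 42.3 for Ogn, 35.0 for Lum, 8.65 for Prelp and 2.69 for Aspn. Bgn (122 to 133) lay above Fmod (86.1 to 89.6) in each library. Dcn (61.2 to 118) spread over Fmod, and Lum (26.6 to 44.5) over Ogn (41.9 to 42.6), so neither pair can be ordered. In Wnt5a-Sox9-Cre controls, Bgn (131), Dcn (118) and Fmod (90.8) led, and the range of Dcn (91.5 to 147) overlapped those of both others. In Vangl1-2 controls, Fmod averaged 51.8, with 97.1 for Bgn, 65.0 for Dcn, 37.1 for Lum, 29.0 for Ogn, 4.71 for Prelp and 1.06 for Aspn. The tables were normalized separately, and genotype and table move together, so these levels are set side by side without a test. 1 transcript length per gene was used, and a gene with several isoforms may hold another length in this tissue.

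**Figure D2:**
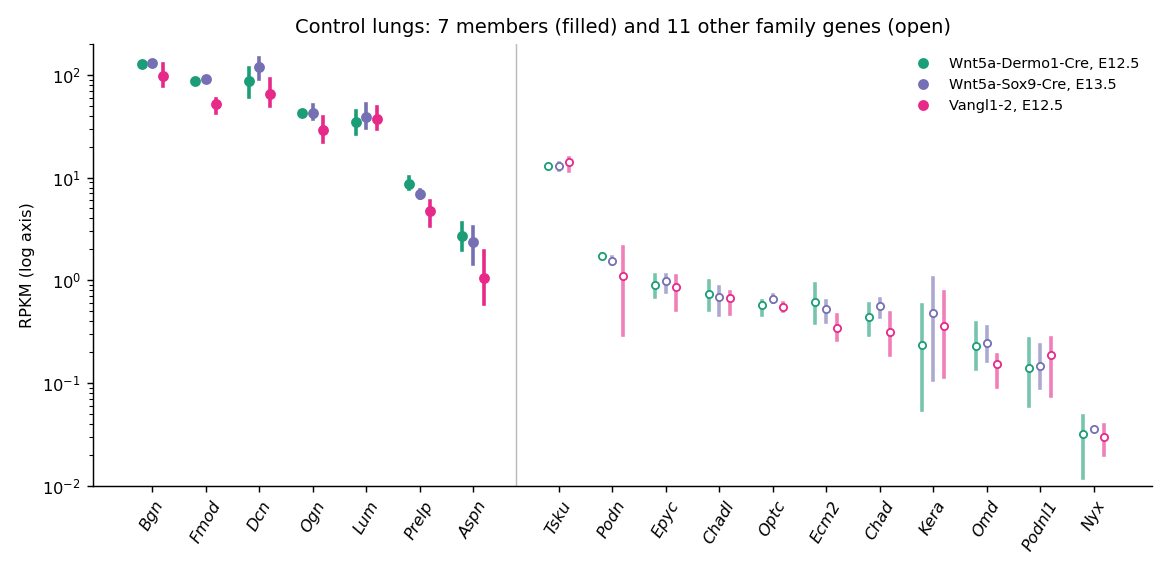
The y axis gives RPKM (log axis) in control lungs, with a point for the mean of 3 libraries and a line from the lowest to the highest, and no line where a library had 0 reads. Filled points are the 7 members and open points 11 other family genes. Tsku (12.9 to 14.1) is the only other gene whose mean lies above Prelp.

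The members differed in how well 3 libraries of a group matched. Fmod was steady in the Wnt5a experiments, with a coefficient of variation of 1.92% in Wnt5a-Dermo1-Cre controls, 2.64% in mutants, 4.63% in Wnt5a-Sox9-Cre controls and 3.16% in mutants, and less so in the Vangl1-2 experiment (12.4% and 11.3%). Lum ranged from 11.5% to 28.8% and Dcn from 14.8% to 34.1% over the 6 groups. Aspn, with 13 to 190 reads per library, ranged from 30.1% to 67.5%. In the Wnt5a experiments a change of a given size was therefore easier to see in Fmod than in Dcn, Lum or Aspn.

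Loss of Wnt5a in mesenchyme was the comparison that chose Fmod. Fmod had 4509, 4344 and 4395 normalized counts in Wnt5a-Dermo1-Cre controls and 3281, 3326 and 3452 in mutants. The groups did not overlap, and the highest mutant lay far below the lowest control. The mean decreased by 24.1% on the log scale (log2 fold change -0.40 ± 0.039 (SE), n = 3 against 3). Of all 14277 genes tested, 7.92% were lower and 7.65% higher in mutants without overlap, and 0.014% passed a limma adjusted p of 0.05 in either direction. DESeq2 called 100 genes and edgeR 2, so the count over all genes depended on the method.

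Bgn, the other member lower without overlap, had 4907, 4772 and 5142 normalized counts in controls and 3956, 4649 and 3892 in mutants. Mutant replicate 2 came within a small step of the lowest control, and the other two mutants were clearly lower (log2 fold change -0.25 ± 0.066). Mutant replicate 2 was also the mutant with the most Wnt5a (436) and the highest summed level of the 7 airway smooth muscle markers (12791, against 7962 and 8188 in the other mutants and 11777 to 16367 in controls). Fmod did not set that library apart, with 3326 between the other two mutants. Bgn is X-linked, and Xist, the RNA of the inactive X chromosome, was 15523 in mutant replicate 2 and at most 20.2 in the other mutants, but was 18.8 in control replicate 3, which had the most Bgn. Y-linked genes summed to 796 in mutant replicate 2, so that library held RNA of both sexes. The part of smooth muscle content and embryo sex in the Bgn values was not tested.

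The 5 further members overlapped between Wnt5a-Dermo1-Cre groups. Lum had 1050, 1345 and 1737 normalized counts in controls and 1549, 1642 and 1215 in mutants. Dcn, its neighbour, had 1737, 2327 and 3300.5 in controls and 2748, 2777 and 2110.0 in mutants. Both ranged more widely within the controls than the group means differed, with log2 fold changes of 0.11 ± 0.17 and 0.09 ± 0.20. Ogn had 1756, 1768 and 1716 in controls and 1740.5, 1649 and 1409 in mutants, with 1 mutant inside the control range (log2 fold change -0.13 ± 0.071). Prelp, a protein that anchors basement membranes to connective tissue, had 587, 451 and 472 in controls and 482, 563 and 471 in mutants. Aspn, a regulator of TGF-beta in cartilage and the periodontal ligament, went from 74.3 to 133.8 in controls and from 41.9 to 152 in mutants. Counted together, 2 of 7 members were lower without overlap and 0 were higher, and the median log2 fold change was -0.13 against 0.00071 over all genes tested. Since Fmod set the choice of the list, nothing is read from these counts.

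Markers of several cell types moved with the Wnt5a-Dermo1-Cre groups. The 8 lung epithelium markers summed to 13693 to 14317 in controls and 12839 to 13051 in mutants, with 4 of 8 lower without overlap, including Epcam, Cdh1 and Foxa2. The 6 pericyte markers summed to 6246 to 6766 and 5903 to 6018, and the 7 Schwann cell and neural crest markers to 832 to 1003 and 1020 to 1579. The 6 liver markers, at low counts, summed to 136 to 300 in controls and 65.5 to 130 in mutants, also without overlap. The airway smooth muscle sums given above overlapped, with a median log2 fold change of -0.52. The 8 lung mesenchyme markers summed to 17150.0 to 18116 in controls and 17681 to 17732 in mutants, with 2 of 8 lower without overlap (Tbx5 and Tcf21), and the 7 tendon and dense fibrous tissue markers to 1484 to 1972 and 1491 to 1888. The sums of the last 2 lists overlapped between the groups. The part of any of these in the Fmod and Bgn values was not tested.

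**Figure D3:**
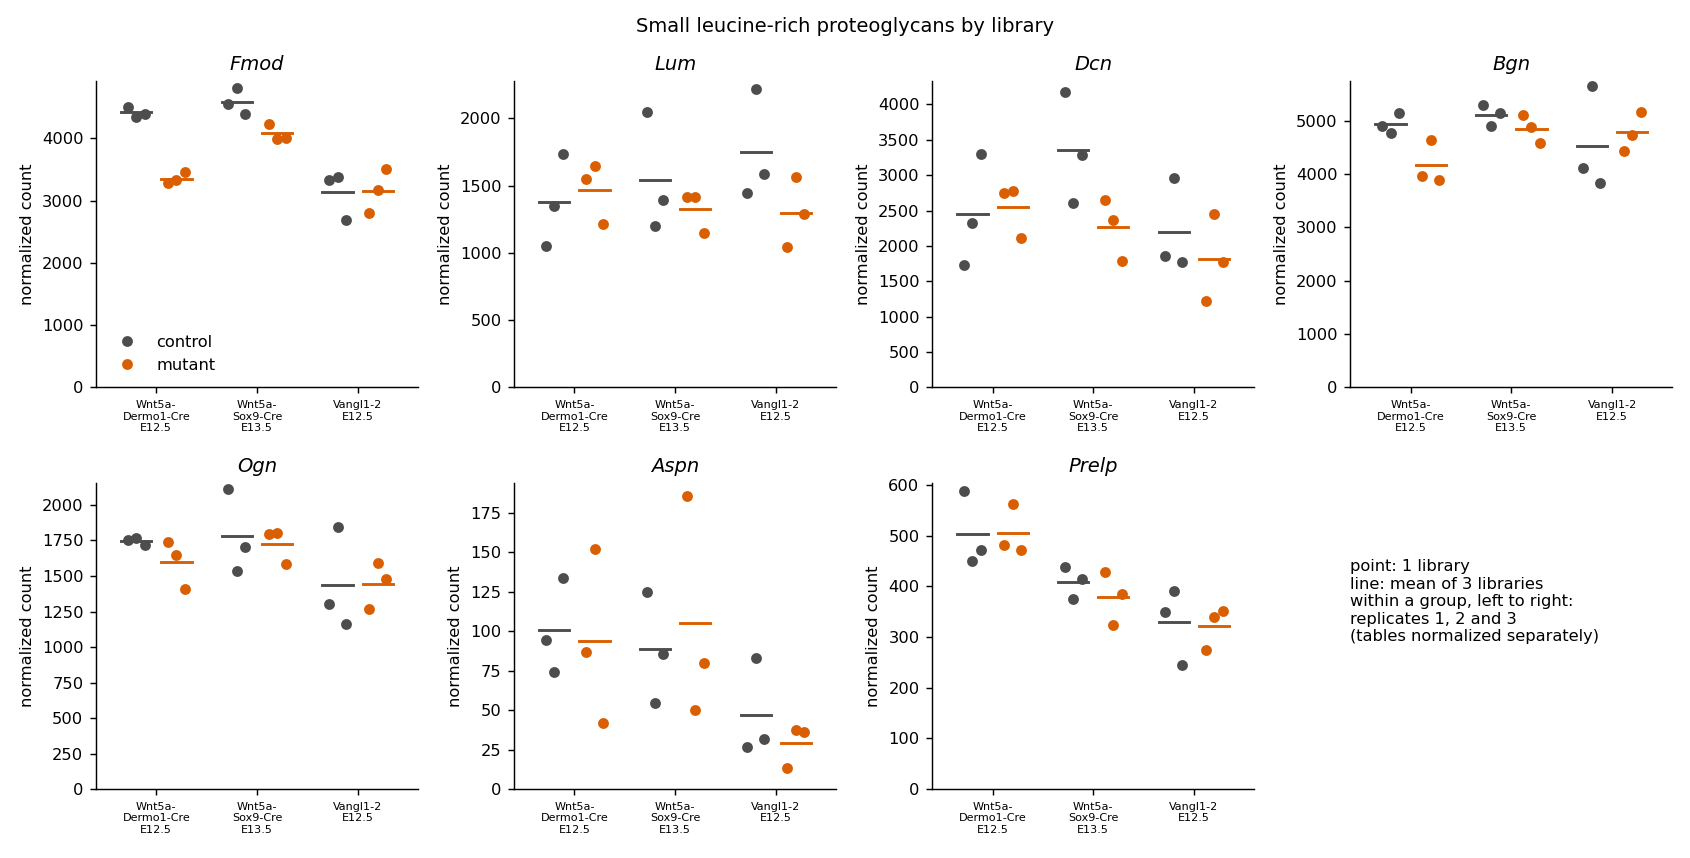
Each panel gives the normalized counts (y axis, from 0) of 1 member in 18 libraries, with control libraries in grey, mutants in orange and a line at each mean of 3. Fmod in the Wnt5a-Dermo1-Cre experiment forms a control set at 4344 to 4509 and a mutant set at 3281 to 3452, while Lum and Dcn scatter within each group.

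Removal of Wnt5a in the epithelium, at E13.5, gave an independent set of libraries. Fmod had 4549, 4814 and 4394 normalized counts in Wnt5a-Sox9-Cre controls and 4227, 3997 and 4010.2 in mutants. The groups again did not overlap, but the gap was narrow, and the highest mutant lay close to the lowest control. The 7 endothelium markers summed to 13615 to 13773 in controls and 13117 to 13485 in mutants, also without overlap, with 2 of 7 lower, and their part in the Fmod values was not tested. The difference of -0.17 ± 0.052 (log2, SE, n = 3 against 3) had an unadjusted limma p of 0.0111 and did not pass adjustment over 14293 genes (adjusted p = 0.9999). The exact permutation test (two-sided) gave p = 0.10, the smallest that 3 against 3 allows. Of all genes tested, 4.36% were lower and 4.42% higher without overlap, and 0% passed an adjusted p of 0.05, with 3.9% at an unadjusted p under 0.05. DESeq2 called 9 genes and edgeR 0, none of them a member.

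Dcn had the lowest fold change of the members in this experiment. It had 4183, 2614 and 3283 normalized counts in controls and 2654, 2363 and 1783 in mutants. Control replicate 2 fell just below mutant replicate 1, so the groups overlapped (log2 fold change -0.56 ± 0.18, limma adjusted p = 0.9999). Unadjusted, the limma p was 0.0149 and that of the exact permutation test (two-sided) 0.20. The 7 mesothelium markers summed to 3640.1 to 4357 in controls and 2839.5 to 3599.9 in mutants, with 3 of 7 lower without overlap, including Wt1 and Tbx18. The 9 cardiomyocyte markers summed to 5220.2 to 18401 in controls and 1030.2 to 5679.9 in mutants. Their part in the Dcn values was not tested.

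The remaining members gave no difference beyond their spread in the Wnt5a-Sox9-Cre experiment. Lum had 2045, 1198 and 1390 normalized counts in controls and 1412, 1414 and 1150.2 in mutants, and Bgn 5297, 4910 and 5146 against 5107, 4882 and 4578. The groups overlapped in both. Ogn (1537 to 2109 in controls, 1584 to 1804 in mutants), Prelp (374 to 438 and 324 to 428) and Aspn (54.8 to 125 and 50.3 to 185) overlapped widely. The log2 fold changes of these 5 members ran from -0.19 for Lum to 0.12 for Aspn, all with an adjusted p of 0.9999. 6 of 7 members had a fold change below 0, 0 passed adjustment, and 2 passed an unadjusted p of 0.05, against the 3.9% of all genes. The median was -0.11, against 0.0013 over all genes tested.

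In the Vangl1-2 experiment, no difference in Fmod was detected between the groups. It had 3337, 3373 and 2685 normalized counts in Vangl1-/- controls and 2797, 3167 and 3513 in Vangl1-/-; Vangl2-/- mutants. The ranges of the groups largely coincided (log2 fold change 0.01 ± 0.13, limma adjusted p = 0.954). The standard error of 0.13, against 0.052 in the Wnt5a-Sox9-Cre experiment, leaves room for a change as large as the one measured there.

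Lum had the smallest p of the members here, with 1446, 2219 and 1590.0 normalized counts in controls and 1043, 1565 and 1291 in mutants. Only mutant replicate 2 reached into the control range (log2 fold change -0.43 ± 0.19, adjusted p = 0.253 by limma). Dcn had 1863, 2965 and 1774 in controls and 1215, 2445 and 1767 in mutants (log2 fold change -0.30 ± 0.28, adjusted p = 0.521). Bgn (3824 to 5655 and 4443 to 5161), Ogn (1159 to 1848 and 1266 to 1592), Prelp (245 to 391 and 275 to 351) and Aspn (26.9 to 82.9 and 13.1 to 37.4) overlapped as well. 0 of 7 members were separated between groups, against 22.3% of all 14303 genes tested (8.68% lower and 13.6% higher). 0 of 7 passed an adjusted p of 0.05, or an unadjusted p of 0.05, against 0.00699% and 20.5% of all genes. DESeq2 called 20 genes and edgeR 1, none of them a member.

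Control replicate 2 of this experiment stood apart from the other controls. It held the highest value of 6 of the 7 members (Lum, Dcn, Bgn, Ogn, Aspn and Prelp), and the highest sum of the 7 tendon and dense fibrous tissue markers (1782, against 900.7 to 1254 in the other libraries). Most of that sum was Tnc (1047.5). Tnc, Thbs4 and Kera were highest in this library, and Scx, Tnmd, Mkx and Egr1 were not. Scx (185) was below the other controls (213 and 257). The red blood cell markers summed to 33586 in control replicate 2, against 51364 and 57535 in the other controls and 31333 to 44559 in mutants (Hba-a1 and Hba-a2 were listed at 0 in every library). The 8 lung mesenchyme markers summed to 20160 in control replicate 2, against 18431 and 18835 in the other controls and 21065 to 21832 in mutants. Genes of that list differed. Pdgfra was 4205, near the mutants (4171 to 4273) and above the other controls (2786 and 2559). Tcf21 was 1780, near the other controls (1859 and 1884) and above the mutants (1394 to 1563). Foxf1 (3129) and Wnt2 (1861) were lower in control replicate 2 than in any other library of the experiment. Which of the controls was atypical was not tested. Without control replicate 2, Bgn was higher in mutants by 0.27 ± 0.078 (log2, limma adjusted p = 0.0197), in a fit in which 43.2% of all genes passed. Fmod had no detectable difference with or without it (adjusted p from 0.640 to 0.997 over all alternatives). In this experiment, fold changes also followed transcript length (Spearman rho 0.702 across genes, which are not independent replicates), and with that trend removed the value for Dcn moved from -0.30 to -0.13. The same rho was 0.243 in the Wnt5a-Dermo1-Cre and -0.031 in the Wnt5a-Sox9-Cre experiment. With the trend removed, Fmod in the Wnt5a-Dermo1-Cre experiment was -0.41.

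**Figure D4:**
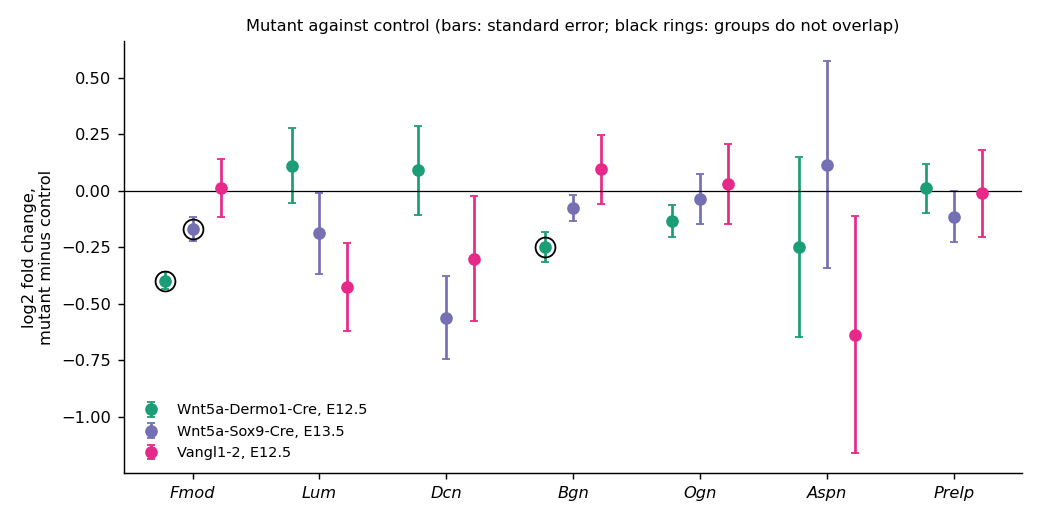
Points give the log2 fold change of mutants against controls (y axis) for the 7 members in 3 experiments, with bars of 1 standard error and black rings where the groups do not overlap. The rings are on Fmod and Bgn in the Wnt5a-Dermo1-Cre experiment and on Fmod in the Wnt5a-Sox9-Cre experiment.

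How the members varied together was measured on log2 deviations from each group's mean, over 18 libraries, for all 21 pairs. This measure does not use the difference between mutants and controls that chose the list. Lum and Dcn, the chromosome 10 neighbours, rose and fell together, with Pearson r = 0.95 and Spearman rho = 0.94 (exact permutation within groups p = 0.000129 and 0.00015, Benjamini-Hochberg adjusted over 21 pairs 0.0027 and 0.00315). Without the 2 libraries farthest from the median of Lum, r was 0.957. Within the experiments it was 0.99, 0.923 and 0.967. Of 13979 genes, Dcn was the closest of all to Lum, and Lum the second closest to Dcn.

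Fmod followed that pair less closely. Its r with Lum was 0.13 and with Dcn 0.29 (adjusted p = 0.668 and 0.443, exact permutation test), and the values differed between the experiments. They were -0.72 and -0.67 in Wnt5a-Dermo1-Cre, -0.20 and -0.12 in Wnt5a-Sox9-Cre, and 0.445 and 0.584 in Vangl1-2 libraries. Prelp, its chromosome 1 neighbour, was closest to Fmod among the members (r = 0.71, rho = 0.637, adjusted p = 0.0457 and 0.0445, exact permutation test). That value leaned on the Vangl1-2 libraries, where r was 0.943, against 0.31 and 0.104 in the Wnt5a experiments, and it was 0.572 without the 2 farthest libraries. On chromosome 13, Ogn and Aspn had r = 0.70 (adjusted p = 0.0204, exact permutation test). Members on different chromosomes also gave high values. Ogn had r = 0.78 with Lum and 0.77 with Dcn, and 0.79 with Bgn on the X. 12 of 21 pairs passed the adjusted p for Pearson's r, and r over the 18 libraries was above 0 in all 21. The share of all gene pairs that would pass was not computed. For Lum and Bgn, which passed at r = 0.63, 3.57% of genes had an r with Lum at least as high. Within Wnt5a-Dermo1-Cre libraries, Fmod was below 0 with each member but Prelp (-0.80 with Ogn), and Prelp was below 0 with Lum (-0.31) and Dcn (-0.40). The other pairs there were above 0.

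The members' deviations also went with markers of other cells. Over the same 18 libraries, the summed red blood cell markers had r from -0.84 (Bgn) to -0.43 (Fmod) with the members. The tendon and dense fibrous tissue list had r from 0.515 (Fmod) to 0.88 (Bgn), and Tnc was the largest part of its sum in each library. The cardiomyocyte list had r = 0.64 with Dcn, 0.532 with Lum and -0.11 with Fmod. Fmod was closest to the endothelium list (r = 0.74), followed by the cartilage (0.62) and pericyte (0.60) lists. Fmod deviations ran from -0.061 to 0.071 in the Wnt5a libraries and from -0.214 to 0.159 in the Vangl1-2 libraries, which weigh most in its values. These lists share libraries and scaling with the members and are given as a description.

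**Figure D5:**
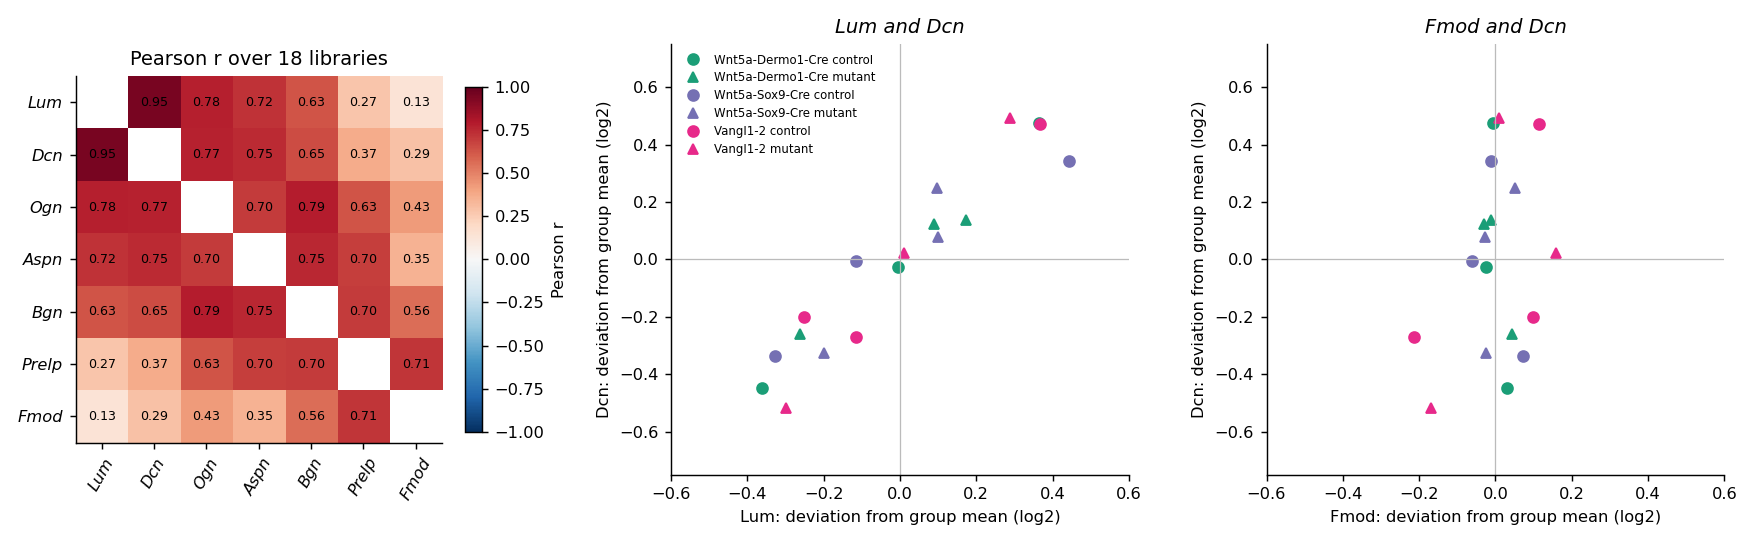
The left panel gives Pearson r of each pair of members over 18 libraries, from log2 deviations from the group mean, and the other panels plot those deviations for Lum against Dcn and for Fmod against Dcn (both axes log2, circles controls, triangles mutants, colours experiments). Lum and Dcn fall along a line (r = 0.95), and Fmod stays near 0 in the Wnt5a libraries while Dcn varies (r = 0.29).

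Among all 13980 genes tested in the 3 tables, those whose pattern was most like Fmod were found by Pearson r over 18 libraries, each centred on its table's mean. They were Smtn, a smooth muscle cytoskeletal protein (r = 0.87), Tuba8, a tubulin (0.84), Tie1, an endothelial receptor tyrosine kinase (0.81), Jup, a junction protein (0.81), and Pcolce, which speeds removal of the procollagen C-propeptide (0.80). This measure contains the Wnt5a-Dermo1-Cre difference that chose Fmod. Tuba8 was at low counts, from 4.03 to 17.1 normalized counts in the 18 libraries. Pcolce had 1439, 1425 and 1417 normalized counts in Wnt5a-Dermo1-Cre controls and 946, 1168 and 1129 in mutants. In the Wnt5a-Sox9-Cre experiment it had 1645, 1587 and 1555 in controls and 1533, 1526 and 1352 in mutants, again without overlap, but it did not pass the test (log2 fold change -0.12 ± 0.063, limma adjusted p = 0.9999). Smtn went from 1964 to 1640 (means of 3) in the Wnt5a-Dermo1-Cre experiment, from 1818 to 1783 in the Wnt5a-Sox9-Cre experiment and from 1842 to 1917 in the Vangl1-2 experiment. Of the members, Bgn ranked 33, Prelp 627 and Ogn 731 in likeness to Fmod, and Lum 5951.

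The 11 other family genes were mostly rare in these lungs. Tsku, a secreted regulator of Wnt, BMP and TGF-beta signaling, had 528 to 873 normalized counts in the 18 libraries with no difference past the test (log2 fold changes 0.07 ± 0.085 in the Wnt5a-Sox9-Cre and 0.14 ± 0.12 in the Vangl1-2 experiment, limma adjusted p = 0.9999 and 0.480). Podn ranged from 18.9 to 122, Epyc from 23.0 to 74.4, and Nyx had at most 6 reads in a library. Optc, the chromosome 1 neighbour of Prelp, had 14.0, 19.1 and 18.8 in Wnt5a-Dermo1-Cre controls and 12.1, 13.9 and 3.99 in mutants. Its groups did not overlap, at a level of a few reads. Of the family genes tested, 9 in Wnt5a-Dermo1-Cre, 8 in Wnt5a-Sox9-Cre and 7 in Vangl1-2, 0 passed an unadjusted or adjusted p of 0.05.

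The genes that make, bind or cleave these proteoglycans were read from 5 lists, and with all libraries no listed gene passed a limma adjusted p of 0.05 in an experiment (by DESeq2, Timp3 did in the Wnt5a-Sox9-Cre experiment, as given with its values). Of 19 collagens and fibril partners tested in Wnt5a-Dermo1-Cre lungs, 0 were lower and 1 higher without overlap (7.92% and 7.65% of all genes). In Wnt5a-Sox9-Cre lungs 3 of 19 were lower without overlap, against 4.36% of all genes. Among them, Tnxb, a matrix protein that binds collagen, averaged 68.0 in controls and 36.7 in mutants (log2 fold change -0.85 ± 0.21, limma adjusted p = 0.9999). Col1a1, a chain of type I collagen, averaged 32037 and 25444 (-0.33 ± 0.12, adjusted p = 0.9999). In Vangl1-2 lungs the list's median log2 fold change was 0.47, with 0 of 18 separated, against 22.3% of all genes. Fbn1, a microfibril protein, averaged 4026 and 6292 there (0.80 ± 0.34, limma adjusted p = 0.240). With the length trend removed Fbn1 moved to 0.22.

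For the enzymes of collagen processing and crosslinking, 19 genes were tested. In Wnt5a-Dermo1-Cre lungs 2 were lower and 1 higher without overlap (7.92% and 7.65% of all genes), in Wnt5a-Sox9-Cre lungs 2 lower (4.36%), and in Vangl1-2 lungs 1 higher (13.6%). The last was Adamts3, a procollagen N-proteinase (289.9 and 422, 0.59 ± 0.21, adjusted p = 0.233 by limma). For the enzymes that build glycosaminoglycan chains, 26 were tested, with 2 lower without overlap in Wnt5a-Dermo1-Cre (7.92% of all genes), 2 lower and 1 higher in Wnt5a-Sox9-Cre (4.36% and 4.42%), and 2 lower and 4 higher in Vangl1-2 (8.68% and 13.6%). B3galt6, which adds a galactose of the chain's linker, averaged 296 and 258 in the Wnt5a-Sox9-Cre groups (-0.20 ± 0.10), and Fam20b, the xylose kinase of that linker, 2001 and 2352 in the Vangl1-2 groups (0.23 ± 0.086). Neither passed adjustment (adjusted p = 0.9999 and 0.233, limma).

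The growth factors and binding proteins that small leucine-rich proteoglycans hold were counted over 20 tested genes of TGF-beta and BMP signaling. In Wnt5a-Dermo1-Cre lungs 3 were lower without overlap (7.92% of all genes), in Wnt5a-Sox9-Cre lungs 2 (4.36%), and in Vangl1-2 lungs 1 lower and 7 higher (8.68% and 13.6%). The 8 lung mesenchyme markers also summed higher in the Vangl1-2 mutants (21065 to 21832, against 18431 to 20160.0 in controls), with 3 of 8 higher and 2 of 8 lower without overlap, and their part in these counts was not tested. In the Vangl1-2 experiment, Tgfbr3, the betaglycan coreceptor, averaged 631 in controls and 952 in mutants (0.62 ± 0.17), Tgfb2 3162 and 4136 (0.39 ± 0.12), and Smad3, a signal transducer, 2246 and 2883 (0.37 ± 0.11). All had an adjusted p of 0.233 (limma), and with the length trend removed they were 0.32, 0.18 and 0.15. Postn, a matrix protein induced by TGF-beta, averaged 3039.6 and 2009.5 in the Wnt5a-Sox9-Cre groups, which overlapped (-0.59 ± 0.19, adjusted p = 0.9999).

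Of the enzymes that cleave proteoglycans and their inhibitors, 12 genes were tested. Timp3, a matrix-bound inhibitor of metalloproteinases, averaged 2101 in Wnt5a-Sox9-Cre controls and 1550 in mutants, lower in 3 of 3 (log2 fold change -0.43 ± 0.095, limma adjusted p = 0.9999, and adjusted p = 0.0332 by DESeq2). In the Vangl1-2 experiment Timp3 averaged 1483 and 2006 with overlap (0.46 ± 0.16, limma adjusted p = 0.233). Timp1 was 379 and 297 there, without overlap (-0.34 ± 0.14, adjusted p = 0.240), and moved to 0.0041 with the length trend removed. Without control replicate 2, which stood apart from the other controls, Adamts3, Fam20b, Fbn1, Tgfbr3, Tgfb2, Smad3, Timp1 and Timp3 all passed the threshold in the Vangl1-2 experiment, along with 43.2% of all genes.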

How the data were processed

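Whole embryonic lungs were sequenced in 18 libraries, in 6 groups of 3. Per the labels and the submitters' processing notes, reads were trimmed with Trim Galore, aligned to mm10 with HISAT2 and counted with featureCounts (versions not given in the sources used here). The deposited values, 1 table per experiment, are a signal made by the authors from gene counts by division with a DESeq2 size factor for each library, here called normalized counts. Each table also holds the authors' log2 fold changes and p-values, which were not used. Every deposited value was a whole multiple of a step per library (100% of values, largest deviation 3.74e-05 reads), which gave back the reads. In some libraries the step was close to 1 and could not be told from rounding by an automatic check, so tests on those reads serve as alternatives only.

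A gene was tested if 3 or more of the 6 libraries reached 10 normalized counts, on log2(normalized count + 1) with limma 3.58.1 (trend, R 4.3.3), with Benjamini-Hochberg adjustment over all genes of the table and a threshold of 0.05. The pseudocount of 1 understates changes of low genes. Fold changes are mutant against control, on that log2 scale. Groups that do not overlap have every mutant library above, or every one below, all controls. On simulated counts for the Wnt5a-Dermo1-Cre libraries (14277 genes), the test found 81.5% of 2-fold and 66.5% of 1.5-fold changes. For the Wnt5a-Sox9-Cre libraries (14293 genes) it found 81.5% and 61%, and for the Vangl1-2 libraries (14303 genes) 76.5% and 0%. Levels per length used the longest principal transcript in GENCODE M21 (GRCm38). 98.3% of gene names had a length. 25 repeated or date-like names were kept as separate rows.

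Named genes were the 7 members, the targeted genes, the 11 other family genes, up to 3 genes per list with the smallest p in the Wnt5a-Sox9-Cre and in the Vangl1-2 experiment, and the 5 genes most like Fmod. The members and lists were chosen with earlier results of these data known. Alternatives were edgeR 4.0.16 and DESeq2 1.42.0 on recovered reads, TMM scaling, pseudocounts of 0.5 and 5, no filter, removal of a trend on transcript length, a replicate block and leaving out each library. Experiments were not tested against each other.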

Additional observations from a re-analysis of the deposited data

Results flagged for a closer look

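Tgfbr3 moved in opposite directions in the Wnt5a-Sox9-Cre and Vangl1-2 experiments, with every library of 1 mutant group below its controls and every library of the other above them. Its log2 fold change was -0.11 in the Wnt5a-Sox9-Cre and 0.62 in the Vangl1-2 experiment. The difference between the experiments was not tested, and neither value passed adjustment.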

How the results depend on the processing

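Fmod in the Wnt5a-Dermo1-Cre experiment stayed between -0.42 and -0.38 (log2 fold change) over 14 alternatives, and Fmod in the Wnt5a-Sox9-Cre experiment between -0.20 and -0.13, never past the threshold (lowest adjusted p 0.227). Removing the trend on transcript length turned Fmod in the Vangl1-2 experiment to -0.0026 and Timp1 there to 0.0041, and raised the members lower without overlap in the Wnt5a-Sox9-Cre experiment from 1 to 2. Leaving out single libraries moved Wnt5a-Dermo1-Cre values from -0.069 to 0.29 for Lum and -0.13 to 0.33 for Dcn (both below 0 without control replicate 1), -0.69 to 0.23 for Aspn (above 0 without mutant replicate 3), -0.068 to 0.13 for Prelp and -0.20 to -0.044 for Ogn. It moved Wnt5a-Sox9-Cre values from -0.35 to 0.032 for Lum, -0.14 to 0.093 for Ogn and -0.40 to 0.54 for Aspn. In the Vangl1-2 experiment it moved Fmod from -0.093 to 0.099, Bgn from -0.017 to 0.27, Ogn from -0.11 to 0.23, Prelp from -0.21 to 0.13, Lum from -0.57 to -0.24, Dcn from -0.55 to -0.042 and Aspn from -0.94 to -0.14. The members lower without overlap then numbered 1 to 3 in the Wnt5a-Sox9-Cre and 0 to 2 in the Vangl1-2 experiment, those higher 0 to 1 in the Vangl1-2 experiment, and those past the threshold 0 to 1 there (Bgn, without control replicate 2). The cause was not tested.

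Of 574 alternative values for 41 fold changes, 542 kept their direction and side of the threshold (or, untested, moved by under 1 SD), 16 reversed, 10 passed the threshold and 6 lost it. The 6 were all Vangl2. Same-numbered control and mutant libraries had deviations correlated from -0.22 to 0.30, so the numbers gave no pairing. With a replicate block, Fmod was -0.40, -0.17 and 0.01 in the 3 experiments, no member passed the threshold in the Wnt5a-Sox9-Cre or Vangl1-2 experiment, and Vangl2 had an adjusted p of 0.0847. The correlation of Lum and Dcn stayed between 0.94 and 0.97 over 22 alternatives chosen after seeing the data. Nyx and Podnl1 fell below the filter on low values in each experiment, and changes in them were not detectable at this depth.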
